A study of Homo sapiens with 6 samples.

Results

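The gp130 family receptors and the Janus kinases (JAKs) were examined in A549, an established line of human lung adenocarcinoma cells. The members were 9 genes chosen by name: the receptors IL6R, IL11RA, IL6ST, LIFR and OSMR and the kinases JAK1, JAK2, JAK3 and TYK2. Every probe set that the platform annotation assigns to one of these symbols was taken, which gave 17 probe sets of the 22215 tested. One group of 2 arrays came from cells transfected with a pCMV5 vector that encodes human PIAS3, and another from cells transfected with siRNA against STAT3. The third group of 2 arrays, the control, came from cells labelled as EGF stimulated, for which no transfection is labelled. Per the labels' protocols, all cells were first seeded for 12 h in medium with 10% FBS. The series' design text then gives serum-free medium and EGF to all groups, whereas the array titles give EGF to the control alone and the treatment protocol speaks of untreated cells. Harvest followed transfection by 48 h, and neither an empty vector nor a non-targeting siRNA is named for any of these groups. A549 is a single line, and whether the arrays in each pair stem from separate cultures is not labelled. The p-values therefore rest on array-to-array spread that may be technical.

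Cytokines of the interleukin-6 family act through gp130, the product of IL6ST, which pairs with itself or with LIFR or OSMR to send the signal. IL6R and IL11RA bind their cytokine and bring it to gp130 but do not signal by themselves. The receptors carry JAK kinases on their intracellular tails, and the kinases phosphorylate the tails and then STAT3, the factor targeted by the siRNA. PIAS3 is known as an inhibitor of phosphorylated STAT3. OSMR and IL6ST are both known to be induced by cytokines of this family in other cell types.

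The 17 probe sets gave no call in any of the 3 comparisons at an adjusted p under 0.05 (limma, Benjamini-Hochberg over all probe sets), where 0.099% of all probe sets were called for PIAS3 against control, 0.0045% for the siRNA against control and 0% for PIAS3 against the siRNA. OSMR, the receptor subunit for oncostatin M, came nearest: each of the 4 transfected arrays read lower than either control. It was the only member with an unadjusted p under 0.05, in both comparisons against control. The 95% interval of every member probe set lay within 1 log2 unit, a 2-fold change, of no difference in all 3 comparisons. This is a bound on array values. Of the 17 probe sets, 12 had a mean at or below 6.49 log2, an off-lineage level described below. Low signal limits what their intervals show about the transcripts.

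The upstream sequences of OSMR, the member nearest to a difference, and of IL6ST, its signalling partner, are shown with the 250 bases before the annotated start (RefSeq, GRCh38.p14, 5′ to 3′ on the gene's strand). Capitals mark GGGCGG on either strand, a GC-box core. OSMR lies at chr5:38845762-38846011 on the plus strand and IL6ST at chr5:55994964-55995213 on the minus strand.
OSMR: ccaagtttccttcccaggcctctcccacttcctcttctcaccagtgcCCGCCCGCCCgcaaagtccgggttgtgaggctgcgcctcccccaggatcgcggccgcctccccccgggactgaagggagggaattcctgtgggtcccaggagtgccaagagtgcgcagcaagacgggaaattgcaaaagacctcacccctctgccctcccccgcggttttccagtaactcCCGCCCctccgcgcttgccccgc
IL6ST: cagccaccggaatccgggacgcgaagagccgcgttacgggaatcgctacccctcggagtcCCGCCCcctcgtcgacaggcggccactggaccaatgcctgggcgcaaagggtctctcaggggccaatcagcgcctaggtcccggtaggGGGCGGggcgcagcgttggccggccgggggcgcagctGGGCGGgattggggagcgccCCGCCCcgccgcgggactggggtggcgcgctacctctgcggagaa

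All 9 genes matched the promoter table by symbol, with 17 annotated starts. The STAT-type palindrome TTCNNNGAA, which reads the same on both strands, was searched in the 250 upstream bases because STAT3 was a target of the study. It was found upstream of 2 of these starts, both of LIFR, against 6.57% of the 35116 promoters in the table. The 2 LIFR stretches are printed with the match in capitals, the first from chr5:38557621-38557669 and the second from chr5:38595542-38595590, both on the minus strand. LIFR has 3 annotated starts, and the labels inner and outer place only these 2 relative to each other.
LIFR, inner start: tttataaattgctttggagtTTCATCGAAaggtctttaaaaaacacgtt
LIFR, outer start: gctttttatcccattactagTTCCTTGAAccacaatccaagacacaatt

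GGGCGG on either strand was at 8 of the 17 starts, in 7 of the genes, against 42.6% of all promoters. A match describes letters in this window and no more.

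The arrays were first checked against the cell type. Of 12 markers of A549 and airway epithelium, 10 had a mean over the 6 arrays above 6.49 log2. That level is the 90th percentile of 46 probe sets for 29 off-lineage genes of muscle, neurons, retina, blood and germ cells. The same held for 1 of 13 leukocyte markers (CD3E, itself an off-lineage gene), 0 of 10 endothelial markers, 4 of 12 fibroblast markers and 5 of 11 hepatocyte markers. Of the hepatocyte markers so counted, FGA, FGB and FGG had control means of 5.77, 5.66 and 5.79. They passed 6.49 only through the transfected arrays. For the A549 and airway markers the median difference from control was -0.07 with PIAS3 and -0.05 with the siRNA. Single genes of that list moved both ways. With PIAS3, KRT19 stood at -1.91, CLDN1 at -1.14, OCLN at -0.86, EPCAM at -0.66, ALDH3A1 at 1.25 and CDH1 at 1.09. With the siRNA the same genes stood at -1.0, -0.98, -0.60, -0.65, 0.62 and 0.24, and none passed in either group. The 2 siRNA arrays lay far apart for KRT19 (10.76 and 9.42), EPCAM (7.12 and 6.04) and ALDH3A1 (11.70 and 12.69). For CLDN1 both read 7.47. Among the fibroblast markers the median difference from control was 0.01 with PIAS3 and -0.02 with the siRNA. SPARC, a matrix protein gene, stood apart from the rest of that list, at 9.95 and 10.14 in the controls, 9.90 and 7.05 with the siRNA and 6.48 and 7.05 with PIAS3. The other fibroblast markers differed from control by -0.17 to 0.16 with PIAS3. Among the leukocyte markers the median difference from control was 0.05 with PIAS3 and 0.01 with the siRNA. CD14, with a mean of 6.16, stood at 0.84 with PIAS3 (limma adjusted p = 0.0792) and 0.10 with the siRNA. STAT3 read 10.50 and 10.43 in the controls, 10.23 and 9.94 in the siRNA arrays and 10.18 and 9.70 in the PIAS3 arrays by its brighter probe set, and its difference from control did not pass in either group. In the interferon-stimulated genes 1 array stood apart. The 28 measured had a median of 3.66 above the control mean in PIAS3 replicate 1, against -0.00 in PIAS3 replicate 2. Among the hepatocyte markers the median difference was 0.18 with PIAS3. The fibrinogen chain genes FGA, FGB and FGG stood apart at 2.89, 2.73 and 3.31 with PIAS3 (limma adjusted p = 0.0792, 0.128 and 0.0792). The other hepatocyte markers, ALB at 0.10 among them, lay between -0.25 and 0.34 with PIAS3. With the siRNA the list median was 0.15, and FGA, FGB and FGG stood at 1.09, 0.89 and 1.28 (limma adjusted p = 0.9998 for each). The 2 siRNA arrays were unlike here: FGA read 6.30 and 7.42, FGB 5.47 and 7.63, and FGG 6.21 and 7.92. The excess of 3′ over 5′ signal for beta-actin, a sign of RNA quality, was 0.12 and 0.10 in the controls, 0.16 and 0.23 with the siRNA and 0.43 and 0.28 with PIAS3. For GAPDH it was 0.36 and 0.29, 0.29 and 0.40, and 0.40 and 0.37 in the same order, and the siRNA arrays overlapped the controls. The part of these features in the members' values was not tested.

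**Figure D1:**
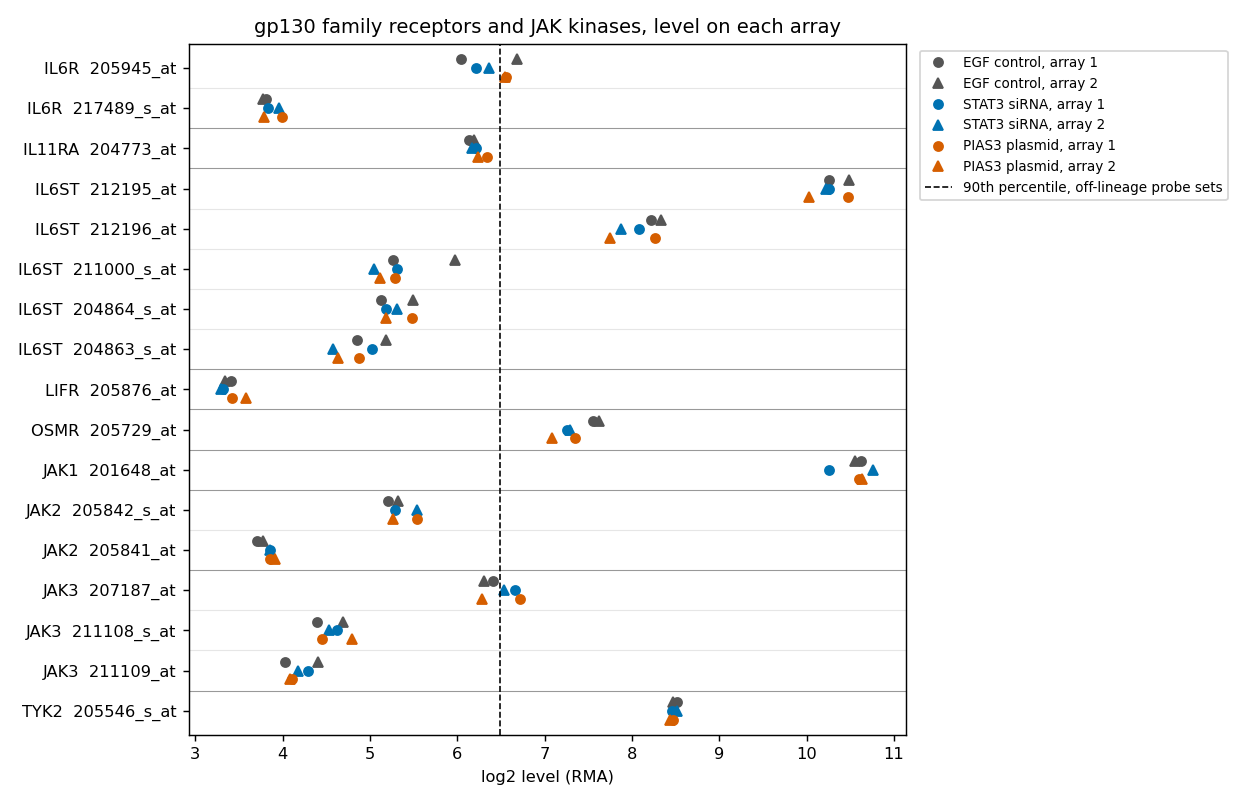
Level of each of the 17 member probe sets (rows, gene symbol and probe set) on each of the 6 arrays, in log2 units as deposited. Circles are replicate 1 and triangles replicate 2 of the control (grey), STAT3 siRNA (blue) and PIAS3 (orange) groups, and the dashed line is 6.49; levels of different probe sets are not comparable with each other. OSMR shows both grey points to the right of the 4 coloured ones, and the JAK1 siRNA arrays lie on both sides of the controls.

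By the same measure, 5 of the 17 probe sets had a mean above 6.49: 2 of IL6ST and those of OSMR, JAK1 and TYK2. The other 12, among them every probe set of IL6R, IL11RA, LIFR, JAK2 and JAK3, had means at or below it. A gene with low values there is not shown to be absent, since probe sets differ in how well they bind.

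Of the ligand-binding receptors, IL6R, the interleukin-6 receptor, has 2 probe sets. The brighter, 205945_at, read 6.04 and 6.69 in the controls, 6.21 and 6.36 in the siRNA arrays and 6.56 and 6.55 in the PIAS3 arrays. The controls thus lay on both sides of all 4 transfected arrays. Its difference from control was 0.19 ± 0.20 with PIAS3 and -0.08 ± 0.20 with the siRNA (log2, SE, n = 2 per group), with limma adjusted p-values of 0.765 and 0.9998. PIAS3 lay 0.27 ± 0.20 above the siRNA group without overlap (limma adjusted p = 0.723).

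The other IL6R probe set, 217489_s_at, read 3.81 and 3.78 in the controls, 3.83 and 3.96 with the siRNA and 3.99 and 3.79 with PIAS3. Those values are dim throughout and span 0.21 in all. IL11RA, the receptor for interleukin-11, read 6.13 and 6.19 in the controls, 6.21 and 6.17 in the siRNA arrays and 6.34 and 6.24 in the PIAS3 arrays. Both PIAS3 arrays were above the others by a small step, a difference from control of 0.13 ± 0.10 (limma adjusted p = 0.664) with a 95% interval of -0.11 to 0.37. With the siRNA the IL11RA difference was 0.03 ± 0.10.

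Of the signal-transducing receptors, IL6ST, the shared gp130 chain, has 5 probe sets, and its brightest, 212195_at, read 10.26 and 10.48 in the controls, 10.26 and 10.22 with the siRNA and 10.47 and 10.03 with PIAS3. The highest PIAS3 array matched the higher control and the other PIAS3 array was the lowest of all, so the groups overlapped. The differences from control were -0.12 ± 0.16 with PIAS3 and -0.13 ± 0.16 with the siRNA (limma adjusted p = 0.827 and 0.9998). Their 95% intervals ran from -0.50 to 0.26 and from -0.51 to 0.26.

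The second IL6ST probe set, 212196_at, read 8.22 and 8.33 in the controls, 8.08 and 7.88 with the siRNA and 8.26 and 7.75 with PIAS3. Both siRNA arrays were below both controls, a difference of -0.30 ± 0.18, whereas PIAS3 replicate 1 lay between the controls. The other IL6ST probe sets are dim. The first of them, 211000_s_at, held the lowest difference of any member in both comparisons against control, -0.41 ± 0.22 with PIAS3 and -0.44 ± 0.22 with the siRNA (limma adjusted p = 0.478 and 0.9998). It read 5.27 and 5.97 in the controls, 5.31 and 5.05 with the siRNA and 5.29 and 5.12 with PIAS3.

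That difference came with the widest gap between control arrays among the members, 0.70, and control replicate 1 read no higher than siRNA replicate 1 or PIAS3 replicate 1. The probe set 204864_s_at read 5.13 and 5.49 in the controls, 5.18 and 5.31 with the siRNA and 5.48 and 5.18 with PIAS3. The dimmest, 204863_s_at, read 4.85 and 5.19 in the controls, 5.03 and 4.58 with the siRNA and 4.88 and 4.63 with PIAS3. The groups overlapped in both. Of the 5 IL6ST probe sets, 4 had a negative difference with PIAS3 and 5 with the siRNA. However, they report 1 gene from the same arrays and share the same controls, so they are not separate observations.

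LIFR, the receptor for leukemia inhibitory factor, read 3.41 and 3.34 in the controls, 3.32 and 3.30 with the siRNA and 3.42 and 3.58 with PIAS3. The PIAS3 arrays were the highest and the siRNA arrays the lowest, over a range of 0.29 at a level below the off-lineage median of 5.24. The differences from control were 0.13 ± 0.11 and -0.07 ± 0.11, and PIAS3 lay 0.19 ± 0.11 above the siRNA group (limma adjusted p = 0.654, the lowest among the members in that comparison).

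OSMR (205729_at) read 7.56 and 7.62 in the controls, 7.26 and 7.29 in the siRNA arrays and 7.35 and 7.08 in the PIAS3 arrays. Both controls were above all 4 transfected arrays, and the siRNA values fell within the range of the PIAS3 values. The difference from control was -0.37 ± 0.12 with PIAS3, a level 1.29-fold lower (unadjusted p = 0.0189, adjusted p = 0.251 by limma), with a 95% interval of -0.66 to -0.08. With the siRNA it was -0.32 ± 0.12, a level 1.25-fold lower (unadjusted p = 0.0352, adjusted p = 0.9998 by limma), with an interval of -0.61 to -0.03. Both comparisons use the same 2 control arrays.

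Neither OSMR difference passed the adjusted threshold. Many other probe sets were placed as OSMR was. A negative difference with a p at or under that of OSMR was found for 4.15% of all probe sets with PIAS3 and for 2.04% with the siRNA. Both controls lay above all transfected arrays for 10.3% of all probe sets, and OSMR was 1 of 17 members. The OSMR difference was -0.50 without PIAS3 replicate 1, the array with raised interferon-stimulated genes, and -0.24 without PIAS3 replicate 2. Between the PIAS3 and siRNA groups OSMR differed by -0.05 ± 0.12, with an interval of -0.34 to 0.24.

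**Figure D2:**
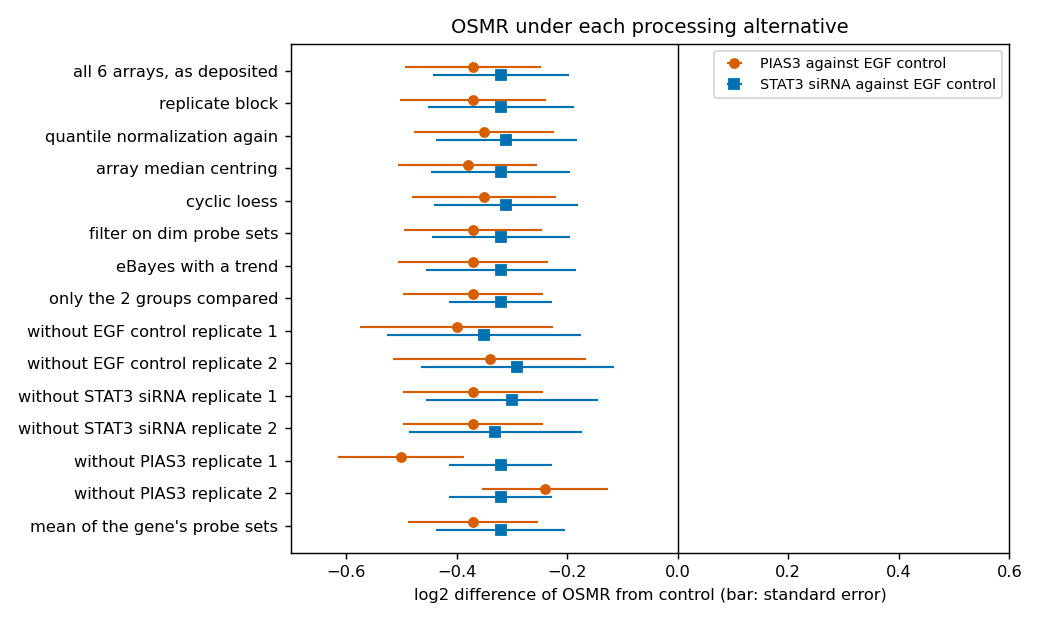
Log2 difference of OSMR from control (horizontal axis) in the fit of all 6 arrays and under each alternative (rows), for PIAS3 (orange circles) and the STAT3 siRNA (blue squares), with bars of 1 standard error. All values lie below 0, from -0.50 to -0.24 for PIAS3 and from -0.35 to -0.29 for the siRNA, and the limma adjusted p was never under 0.201.

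Among the kinases, JAK1, which gp130 depends on most, read 10.62 and 10.55 in the controls, 10.26 and 10.76 with the siRNA and 10.60 and 10.63 with PIAS3. The controls and the PIAS3 arrays lay close together. The 2 siRNA arrays differed by 0.50, the widest gap of any member in that group, and stood on both sides of the rest. The difference from control was 0.03 ± 0.17 with PIAS3 and -0.07 ± 0.17 with the siRNA (limma adjusted p = 0.968 and 0.9998). The siRNA value was 0.18 without siRNA replicate 1 and -0.32 without siRNA replicate 2, so its sign depended on 1 array.

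TYK2, the partner kinase of interferon and interleukin-12 family receptors, read 8.52 and 8.47 in the controls, 8.46 and 8.52 with the siRNA and 8.47 and 8.44 with PIAS3. These 6 values spanned 0.08, the narrowest range of any member. The 95% intervals of its difference ran from -0.28 to 0.20 with PIAS3 and from -0.25 to 0.23 with the siRNA.

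JAK2, the kinase of hormone-like cytokine receptors that also sits on gp130, has 2 dim probe sets. The brighter, 205842_s_at, read 5.21 and 5.32 in the controls, 5.29 and 5.54 with the siRNA and 5.54 and 5.26 with PIAS3, and the groups overlapped. The dimmer, 205841_at, read 3.71 and 3.78 in the controls, 3.86 and 3.86 with the siRNA and 3.86 and 3.91 with PIAS3. It was the only member with both controls below all transfected arrays, an order found for 8.25% of all probe sets. Its differences were small, at 0.14 ± 0.10 and 0.12 ± 0.10. By the brighter probe set the JAK2 differences were 0.13 ± 0.14 and 0.15 ± 0.14 (limma adjusted p = 0.761 and 0.9998).

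JAK3, a kinase mainly of lymphoid cells that pairs with the common gamma chain, has 3 probe sets. The brightest, 207187_at, read 6.41 and 6.31 in the controls, 6.66 and 6.54 with the siRNA and 6.72 and 6.28 with PIAS3. Both siRNA arrays were above both controls, while the PIAS3 arrays were the highest and the lowest of all. The differences from control were 0.24 ± 0.16 with the siRNA, the highest of any member there, and 0.14 ± 0.16 with PIAS3 (limma adjusted p = 0.9998 and 0.774). Without PIAS3 replicate 2 the PIAS3 difference was 0.36 (limma adjusted p = 0.145, the lowest of any member gene under the alternatives run), and without PIAS3 replicate 1 it was -0.08. The probe set 211108_s_at read 4.40 and 4.69 in the controls, 4.62 and 4.53 with the siRNA and 4.45 and 4.79 with PIAS3. The last, 211109_at, read 4.03 and 4.41 in the controls, 4.29 and 4.18 with the siRNA and 4.11 and 4.09 with PIAS3. In both, the controls spanned most of the range.

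**Figure D3:**
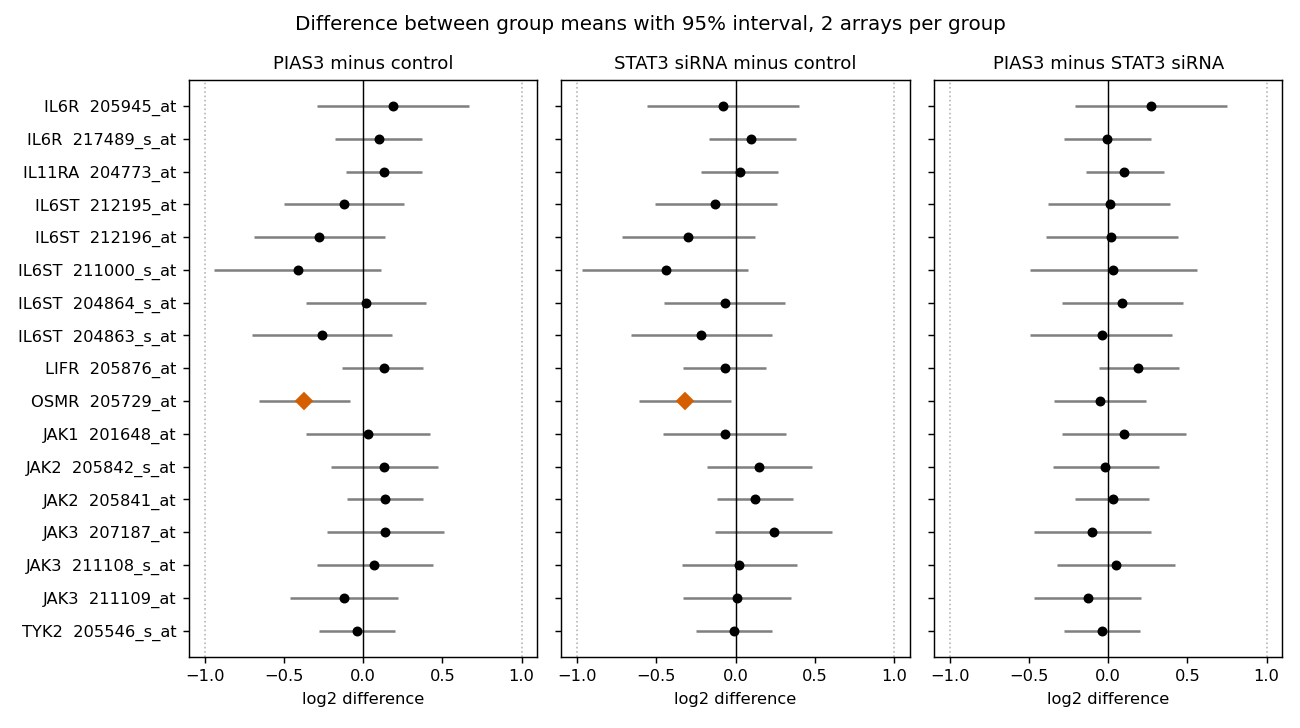
Difference between group means (points, log2) with its 95% interval (bars) for the 17 member probe sets in the 3 comparisons, 2 arrays per group. Diamonds mark an unadjusted p under 0.05, which OSMR alone reached, at -0.37 and -0.32; every bar lies between the dotted lines at -1 and 1.

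Over all 17 probe sets the median log2 difference was 0.03 for PIAS3 against control, -0.07 for the siRNA against control and 0.02 for PIAS3 against the siRNA, beside -0.01, -0.00 and -0.01 over all probe sets. With PIAS3, 10 were above and 7 below control, and with the siRNA 7 were above and 10 below. At an unadjusted p under 0.05 the count was 1 of 17 with PIAS3, where 13.9% of all probe sets reached that level, and 1 of 17 with the siRNA, against 4.85%. Between PIAS3 and the siRNA it was 0 of 17, against 8.1%.

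PIAS3 and control did not overlap for 5 of the 17, against 45.4% of all probe sets. For the siRNA and control the count was 6, against 37.5%, and for PIAS3 and the siRNA 4, against 35.0%. The difference was larger than the gap within both pairs of arrays for 3, 4 and 4 of the members in the 3 comparisons, against 31.2%, 24.6% and 20.1% of all probe sets. The median gap between the arrays of a pair was 0.11 in the controls, 0.12 in the siRNA group and 0.20 in the PIAS3 group for the members, beside 0.09, 0.14 and 0.16 over all probe sets.

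The intervals set what these arrays could show. The outermost 95% bounds of any member were -0.94 and 0.67 for PIAS3 against control, -0.97 and 0.61 for the siRNA against control, and -0.49 and 0.75 for PIAS3 against the siRNA. The smallest difference that was called among all probe sets for PIAS3 against control was 0.99 in size. That comparison had 22 calls, which became 0 without either control array and 1232 without PIAS3 replicate 2. The absence of a call does not show that the levels were equal.

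The order of the groups by mean level differed from gene to gene. The controls were highest for IL6ST, OSMR and TYK2, PIAS3 for IL6R, IL11RA, LIFR and JAK1, and the siRNA group for JAK2 and JAK3, each by its brightest probe set. No pair of neighbours in these orders passed the test.

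The rest of the pathway gave 89 measured genes, of which 0 passed over all probe sets in any comparison, where 0.125%, 0.00836% and 0% of all genes by 1 probe set each were called in the 3 comparisons. They include the ligands and other receptors, the STAT factors, the feedback inhibitors, JAK phosphatases and adaptors, and 28 interferon-stimulated genes. Without the last of these, 61 genes were left. At an unadjusted p under 0.05, 4 of the 61 were higher and 5 lower with PIAS3, against 7.13% and 7.44% of all genes by 1 probe set each. With the siRNA 2 were higher and 1 lower, against 2.32% and 3.06%.

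Of the 7 measured gp130 family ligands, 0 had an unadjusted p under 0.05 in either comparison against control. IL11, the ligand of IL11RA, read 8.12 and 8.20 in the controls, 7.96 and 7.53 with the siRNA and 7.45 and 8.09 with PIAS3. All 4 transfected arrays were thus below both controls, by steps that varied with the array. IL6 itself read between 3.73 and 4.24 on all arrays, below the off-lineage median.

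IL27RA, which pairs with gp130 to bind interleukin-27, read 6.37 and 6.27 in the controls, 6.25 and 6.15 with the siRNA and 5.95 and 5.95 with PIAS3. Its difference with PIAS3 was -0.37 ± 0.11 (limma adjusted p = 0.200). Of the 19 other JAK-coupled receptors measured, IL22RA1, a receptor for interleukin-22, stood at 0.32 ± 0.12 and IL4R, the interleukin-4 receptor, at -0.36 ± 0.13 with PIAS3. IL15RA, the interleukin-15 receptor, stood at -0.41 ± 0.16 with the siRNA (limma adjusted p = 0.303, 0.289 and 0.9998). IL27RA and IL22RA1 had means of 6.16 and 6.15, below 6.49, so low signal limits what their differences show.

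Downstream of the kinases, STAT4 read 7.57 and 7.74 in the controls, 8.05 and 8.14 with the siRNA and 8.20 and 8.33 with PIAS3. All transfected arrays were above both controls, with differences of 0.44 ± 0.12 for the siRNA and 0.61 ± 0.12 for PIAS3 (limma adjusted p = 0.762 and 0.0973). STAT3 differed from control by -0.53 ± 0.18 with PIAS3 and -0.38 ± 0.18 with the siRNA, and STAT5B by -0.38 ± 0.14 with PIAS3 (limma adjusted p = 0.254, 0.9998 and 0.282). PIAS3 itself differed by 0.04 ± 0.11 in the arrays labelled PIAS3. The labels do not place its probes relative to the coding insert, so its level is no check of the transfection.

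Among the feedback inhibitors, SOCS2 stood at -0.47 ± 0.13 and SOCS5 at 0.64 ± 0.24 with PIAS3 (limma adjusted p = 0.193 and 0.305). STAM2, an adaptor that binds JAK2 and JAK3 and sorts receptors at endosomes, read 7.40 and 7.61 in the controls, 7.70 and 8.04 with the siRNA and 8.04 and 8.14 with PIAS3. It was above control on all 4 transfected arrays, by 0.59 ± 0.15 with PIAS3 and 0.36 ± 0.15 with the siRNA (limma adjusted p = 0.151 and 0.9998). By the mean of the gene's probe sets the STAM2 difference with PIAS3 was smaller, at 0.34. With the siRNA it was as low as 0.19 under the alternatives run. The sheddases ADAM10 and ADAM17, which cut IL6R from the cell surface, did not reach an unadjusted p under 0.05 in either comparison, nor did any of the 4 PIAS genes.

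The interferon-stimulated genes, which type I interferon switches on through JAK1 and TYK2, had a median difference of 1.76 with PIAS3 and -0.01 with the siRNA, and 0 of 28 passed over all probe sets. Without PIAS3 replicate 2, 28 of the 89 pathway genes passed for PIAS3 against control. All 28 interferon-stimulated genes read higher in PIAS3 replicate 1 than in replicate 2, by a median of 3.34. IRF9, a partner of STAT proteins in that response, read 7.94 and 7.90 in the controls, 8.09 and 8.58 with the siRNA and 11.44 and 8.46 with PIAS3. For the 17 member probe sets, PIAS3 replicate 1 minus replicate 2 had a median of 0.18 and a range of -0.34 to 0.51. The same signed difference was not computed over all probe sets. Without regard to sign, the median gap of this pair was 0.20 for the members and 0.16 over all probe sets. The JAK1 values were 10.60 and 10.63 and the TYK2 values 8.47 and 8.44 in these arrays.

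**Figure D4:**
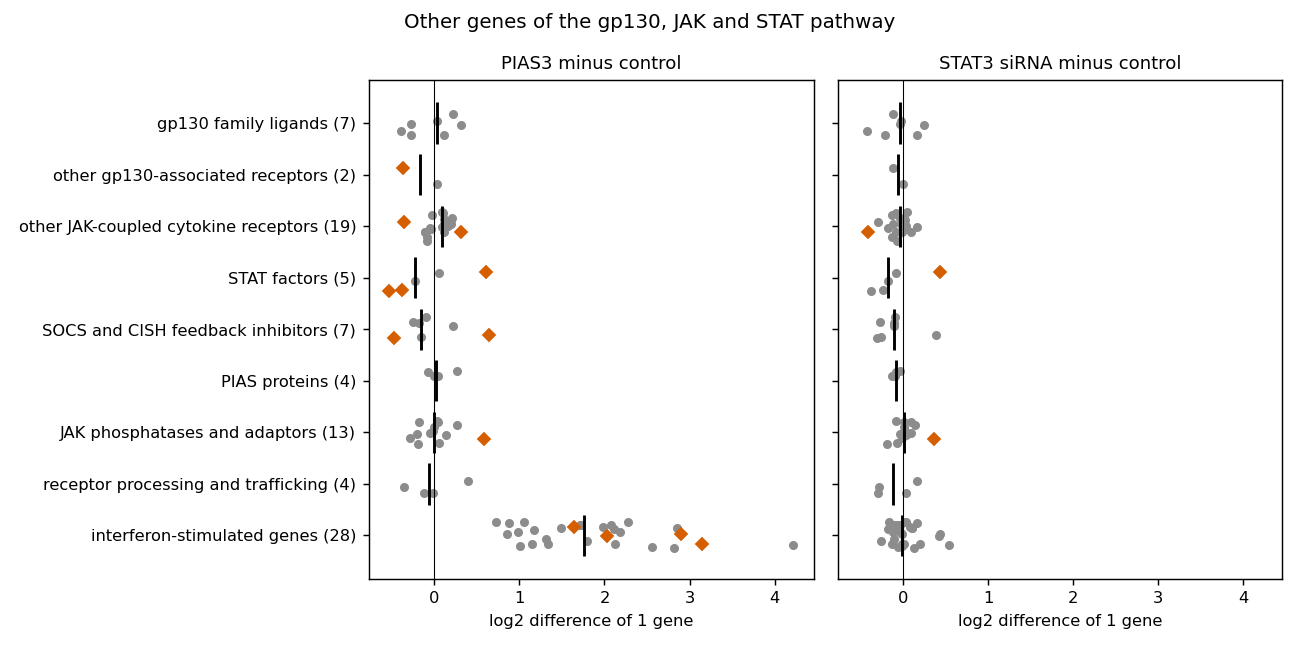
Log2 difference from control of each other pathway gene (points), by list (rows, with the number of genes measured), for PIAS3 and for the STAT3 siRNA. Vertical ticks are list medians and diamonds an unadjusted p under 0.05; the interferon-stimulated genes have a median of 1.76 with PIAS3, with PIAS3 replicate 1 at a median of 3.66 and replicate 2 at -0.00 above the control mean, and the other lists have medians from -0.23 to 0.09.

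The genes whose levels followed a member most closely were sought among 7221 genes with a mean above 6.49, by Pearson's r of log2 level over the 6 arrays. OSMR was followed most closely by ASCC2, RCN1 and LAMC1 (r of 0.991, 0.989 and 0.979), and IL6ST by DPF3, WFDC2 and PRELP (0.995, 0.987 and 0.979). JAK1 was followed by SRSF6, ATF4 and RPP38 (0.994, 0.979 and 0.978), and TYK2 by VAC14, RUBCN and SFSWAP (0.980, 0.975 and 0.973). The TYK2 values spanned only 0.08, and those of VAC14, RUBCN and SFSWAP 0.27, 0.20 and 0.15. With 6 arrays from 1 cell line and so many genes searched, values this high are a description of these arrays. An r over 0.95 was found for 14 genes with OSMR, 12 with IL6ST, 10 with JAK1 and 5 with TYK2.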

How the data were processed

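RNA was measured on 6 expression arrays. The values are log2 levels for each probe set, deposited by the authors. They were made with RMA (background correction, normalization between arrays, summary over probes), per the submitters' processing notes. The RMA version and genome build were not given in the sources used here. Of 22277 probe sets, 62 array controls were left out. Symbols came from the supplied platform annotation: 19064 probe sets had 1 symbol, 1043 several and 2108 none, and those with several or none stayed unnamed. The brightest probe set (highest mean over the 6 arrays) stood for a gene.

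Groups and replicate numbers came from the titles. One limma 3.58.1 model (R 4.3.3; lmFit, eBayes, two-sided) held all arrays and 1 mean per group, with 3 residual and 4.27 prior degrees of freedom. P-values were adjusted by Benjamini-Hochberg over 22215 probe sets per comparison. The number of arrays limits the precision. The members, gene lists, marker lists and tests were chosen with earlier results of these data known. Named genes were all member probe sets, STAT3 and PIAS3 as targeted genes, up to 4 genes of each pathway list with the smallest p in either comparison against control, and the 3 genes most like each member above 6.49. Not every eligible pathway gene is printed. The alternatives comprised a block on replicate number, 3 renormalizations (quantile, median centring, cyclic loess) and removal of probe sets whose mean lay under the 40th percentile. Others were a trended variance, a fit of just the 2 groups compared, a threshold of 0.10, a gene's mean over its probe sets, and omission of single arrays. The fit was tested on simulated data. Promoters came from a RefSeq table (GRCh38.p14). Figures were drawn with matplotlib 3.10.9.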

Additional observations from a re-analysis of the deposited data

How the results depend on the processing

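The count of member probe sets called was 0 in all 3 comparisons under every alternative run, and the smallest adjusted p of a member gene under any of them was 0.145 (limma; JAK3 for PIAS3 against control, without PIAS3 replicate 2). At an unadjusted p under 0.05 the counts in the fit of all arrays were 1, 1 and 0. The filter on dim probe sets kept 8 of the 17, so the others have no value there. Replicate numbers gave no sign of pairing the arrays: the deviations of replicate 1 from the group means correlated at -0.059, 0.092 and -0.047 between groups. Such correlations cannot exclude a pairing, since effects on single arrays can hide it. With the replicate block the OSMR differences stayed at -0.37 and -0.32, and no member was called; over all probe sets 2 were called for PIAS3 against control in place of 22, and 1 for the siRNA against control.

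Some member differences changed sign. TYK2 was 0.01 with cyclic loess for PIAS3 against control and against the siRNA, and 0.00 with quantile normalization again for the siRNA against control. IL6R (siRNA against control) and JAK2 (PIAS3 against siRNA) were each 0.01 by the mean of the gene's probe sets, and IL6ST (PIAS3 against siRNA) was -0.01 with array median centring. With 1 array left out, differences that changed sign ranged as follows. For PIAS3 against control, IL6R ran from -0.14 to 0.52, IL6ST from -0.34 to 0.10, JAK1 from 0.00 to 0.06, JAK2 from -0.01 to 0.27 and JAK3 from -0.08 to 0.36. For the siRNA against control, IL6R ran from -0.41 to 0.25, JAK1 from -0.32 to 0.18 and TYK2 from -0.04 to 0.03. For PIAS3 against the siRNA, IL6ST ran from -0.21 to 0.23, OSMR from -0.19 to 0.08, JAK1 from -0.15 to 0.35, JAK2 from -0.16 to 0.12 and JAK3 from -0.32 to 0.12.

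Calls over all probe sets for PIAS3 against control were 22, and became 2 with quantile normalization again, 39 with cyclic loess, 2 with the filter on dim probe sets, 262 with only the 2 groups compared and 254 at an adjusted p of 0.10. With 1 array left out they ran from 0 (without either control) through 2 (without PIAS3 replicate 1) and 262 (without either siRNA array) to 1232 (without PIAS3 replicate 2). For the siRNA against control the single call became 0 with quantile normalization again and with cyclic loess and 3 with only the 2 groups compared, and ran from 0 to 5 with 1 array left out, the highest without siRNA replicate 1. For PIAS3 against the siRNA the count ran from 0 to 544, the highest without PIAS3 replicate 2. Pathway genes called ran from 0 to 28 in both PIAS3 comparisons, the 28 without PIAS3 replicate 2, and 1 was called for PIAS3 against control at an adjusted p of 0.10. A lone array left in a group took its spread from the remaining pairs. Low signal limits the dim probe sets of IL6R, IL11RA, LIFR, JAK2 and JAK3.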
